A study of Danio rerio with 6 samples.

Results

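The sodium pump, the Na+/K+-ATPase, is the enzyme in the basolateral membrane of tubule cells that exports sodium and imports potassium at the cost of ATP. Its alpha subunit binds the ions and ATP, its beta subunit is a glycoprotein that carries the alpha subunit to the cell surface, and small FXYD proteins tune its activity. The sodium gradient it makes drives the uptake of glucose, phosphate and amino acids from the filtrate in the proximal tubule, and in injured mammalian tubules the pump is known to leave its basolateral position. Zebrafish carry several alpha 1 genes, most of them side by side in the genome.

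Here 5 sodium pump subunit genes were examined among the 32520 genes of a zebrafish RNA-seq count table. They were chosen by Ensembl identifier for their role and by no rule on their values, though earlier results of these data were known. They comprised 4 alpha genes, atp1a1a.1 (ENSDARG00000002791), atp1a1a.2 (ENSDARG00000007739), atp1a1a.4 (ENSDARG00000001870) and atp1a1b (ENSDARG00000019856), and 1 beta gene, atp1b1a (ENSDARG00000013144). The members are named as the list that chose them names them. In the RefSeq order of zebrafish genes (assembly GRCz12tu), atp1a1a.4, atp1a1a.1, atp1a1a.2, atp1a1a.3 and atp1a1a.5 are direct neighbours among protein-coding genes. Reads from such related genes can be hard to assign, and the counting rule for reads that match several genes is not given in the sources used here.

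The libraries came from GFP+ pronephros picked out of Tg(PT:EGFP) larvae, whose transgene labels the proximal tubule. All larvae had been injected with gentamicin at 3 dpf, which injures the tubule (gent-AKI). At 2 dpi (5 dpf) they were placed for 24 h in 1 μM UPHD25, an ester prodrug of the histone deacetylase inhibitor PTBA, in 1% DMSO (gent-AKI+UPHD25, 3 libraries), or in 1% DMSO alone (gent-AKI+DMSO, 3 libraries). Each library was 1 pool of 100 larvae, numbered as replicate 1, 2 or 3 in each group. No uninjured larvae were part of this comparison, so the values show pump transcripts after injury with and without UPHD25 and not the effect of the injury.

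Libraries held between 10781071 and 30750026 counts on genes, and 3 counts stood for at most 0.289 CPM (counts per 1000000 counts on genes, with library totals scaled by edgeR's TMM factors). The tubule marker CDH17 was present at 59.3 to 125 CPM after UPHD25 and 73.5 to 149 CPM after DMSO. The pools also held RNA of other tissues. A list of 5 skeletal muscle genes summed to between 5296 and 10126.5 CPM after UPHD25 and between 12007 and 13000 CPM after DMSO, and 5 liver genes summed to between 3443 and 7513 CPM after UPHD25 and between 6863 and 10183 CPM after DMSO. UPHD25 replicate 3 stood apart in its epidermal genes, whose sum over 5 genes was 2070.2 CPM against 662 to 789 CPM in the other 5 libraries. Among listed markers, foxi3b (ionocytes), lyz (leukocytes) and alas2 (erythroid cells) had 0 counts in every library. Other genes of the same lists were present, such as foxi3a (14 to 90 counts), ptprc (114 to 692 counts) and hbae3 (452 to 6498 counts). The pump is used by every animal cell, and in pooled tissue fewer cells of a type and less RNA per cell cannot be told apart.

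The pump members were compared between gent-AKI+UPHD25 and gent-AKI+DMSO to ask whether the treated tubules differed in pump transcripts. The alpha and beta transcripts with the most counts in the pools, atp1a1a.1 and atp1b1a, had log2 fold changes of -0.08 and -0.12, and atp1a1a.4 spread more widely between pools of 1 group than between the 2 group means. Of the 5 members, 4 passed edgeR's filter on low counts and 0 of these 4 had an adjusted p under 0.05 (edgeR's quasi-likelihood test, Benjamini-Hochberg adjustment over the 17497 genes tested, n = 3 libraries per group). The share called over all genes was 0%. At an unadjusted p under 0.05 the number was also 0 of 4 members, where 12.5% of all genes passed, and DESeq2's Wald test called 0 members, where 3.42% of all genes passed. The 2 groups overlapped in every member tested (0 of 4 apart, against 17.8% of all genes). The median log2 fold change of the 4 members was -0.10, beside 0.03 over all genes tested.

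Of the alpha genes, atp1a1a.1 is needed in zebrafish for heart development and is also known from skin ionocytes, the ion-pumping cells of the larval skin. It had 1151, 1285 and 915 CPM in UPHD25 replicates 1, 2 and 3, against 1146, 1264 and 1134 CPM in DMSO replicates 1, 2 and 3. The DMSO pools lay close together, the first and second UPHD25 pools matched them, and UPHD25 replicate 3 was the lowest of all 6. The mean was 1117 ± 187 CPM after UPHD25 and 1181 ± 72.0 CPM after DMSO (SD, n = 3 each). The log2 fold change was -0.08 (95% interval -0.59 to 0.43, adjusted p = 0.936 by edgeR's quasi-likelihood test), a difference within the spread between pools. Its sign rested on UPHD25 replicate 3, without which the value was 0.042, and on scaling, since library totals gave 0.032. In pairs of the same replicate number the ratio of UPHD25 to DMSO was 1.005, 1.016 and 0.807 for replicates 1, 2 and 3. By its mean CPM, not corrected for gene length, atp1a1a.1 lay above 99.4% of the genes tested.

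The beta gene atp1b1a encodes the subunit that stabilises the alpha subunit and brings it to the membrane, and a zebrafish mutant of it is known for its epidermal defects. It had 786, 789 and 648 CPM in UPHD25 replicates 1, 2 and 3, against 782, 762 and 868 CPM in DMSO replicates 1, 2 and 3. As for atp1a1a.1, UPHD25 replicate 3 was the lowest library with TMM factors, and the groups overlapped. As a share of all counts on genes, UPHD25 replicate 3 was not the lowest library for atp1b1a, so this rank depended on the scaling. The mean was 741 ± 80.4 CPM after UPHD25 and 804 ± 56.0 CPM after DMSO (SD, n = 3 each), with a log2 fold change of -0.12 (95% interval -0.58 to 0.34, adjusted p = 0.883 by edgeR's quasi-likelihood test). The same-number ratios were 1.004, 1.034 and 0.747, so the UPHD25 pool was the lower in replicate 3 alone. Without UPHD25 replicate 3 the log2 fold change was -0.032, and with library totals over all 6 libraries it was -0.0056. Over the 6 libraries the SD of log2 CPM was 0.17 for atp1a1a.1 and 0.14 for atp1b1a, and 4.66% of the genes tested had a smaller SD than atp1b1a. By its mean CPM atp1b1a lay above 98.9% of the genes tested, and its SD was not compared with genes of a like level.

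The alpha gene atp1a1a.4 is widely used as a marker of the pronephric tubule in zebrafish. It had 222, 69.5 and 268 CPM in UPHD25 replicates 1, 2 and 3, against 174, 77.5 and 205 CPM in DMSO replicates 1, 2 and 3. The replicate 2 pool was by far the lowest in both groups, and the other 4 libraries all lay at 174 CPM or above. The mean was 186 ± 104 CPM after UPHD25 and 152 ± 66.7 CPM after DMSO (SD, n = 3 each). The log2 fold change was 0.29 (95% interval -0.90 to 1.48, adjusted p = 0.888 by edgeR's quasi-likelihood test), and it ran from -0.058 without UPHD25 replicate 3 and -0.035 without DMSO replicate 2 to 0.68 without UPHD25 replicate 2. Within pairs the ratio of UPHD25 to DMSO was 1.270, 0.898 and 1.306 for replicates 1, 2 and 3. Blocked on replicate number, the log2 fold change was 0.19, with an interval from -0.26 to 0.65 (adjusted p = 0.675, edgeR's quasi-likelihood test). A change of more than 1.48 on the log2 scale upward or 0.90 downward lies outside the interval without the block.

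The SD of log2 CPM of atp1a1a.4 over the 6 libraries was 0.82, higher than in 89.1% of the genes tested. A test of the replicate number in the blocked fit, chosen after these values were seen, gave an adjusted p of 0.186 for atp1a1a.4 (edgeR's quasi-likelihood test). The adjusted p was 0.707 for atp1a1a.1, 0.405 for atp1a1a.2 and 0.985 for atp1b1a by the same edgeR test. Over all genes 0 passed, and 13.8% had an unadjusted p under 0.05.

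Some tubule transcripts, but not all, were low in the same pools as atp1a1a.4. The gene pdzk1, whose product is a scaffold of brush border transporters, had 50.3, 9.52 and 68.8 CPM in UPHD25 replicates 1, 2 and 3, against 48.1, 6.55 and 26.5 CPM in DMSO replicates 1, 2 and 3. CUBN, the endocytic receptor cubilin, had 34.0, 14.8 and 23.2 CPM after UPHD25, against 43.1, 11.9 and 30.9 CPM after DMSO, in the same order. CDH17, the tubule cadherin, had 125, 59.3 and 114 CPM after UPHD25, against 141, 73.5 and 149 CPM after DMSO. In these 3 genes the replicate 2 pool was the lowest of its group. The epithelial cadherin cdh1 had the other order, with 172, 201 and 148 CPM in UPHD25 replicates 1, 2 and 3, against 198, 304 and 270.4 CPM in DMSO replicates 1, 2 and 3, so that its replicate 2 pools were the highest. PAX8, a transcription factor of the pronephros, was lowest in replicate 2 after UPHD25 but not after DMSO. The replicate 2 pool was the lowest within each group for 3 of the 4 proximal tubule markers tested (not for LRP2). The same held for 11 of 16 genes listed under proximal sodium-coupled transport, where 16.7% of all genes tested had this order. SLC26A1 stands in both lists and is counted in both numbers. This order was seen in 0 of 5 skeletal muscle genes, 0 of 5 liver genes and 0 of 8 neuronal genes. Among the members atp1a1a.4 had this order, while atp1a1a.1, atp1a1a.2 and atp1b1a did not. The part of tubule content in the level of atp1a1a.4 was not tested.

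**Figure D1:**
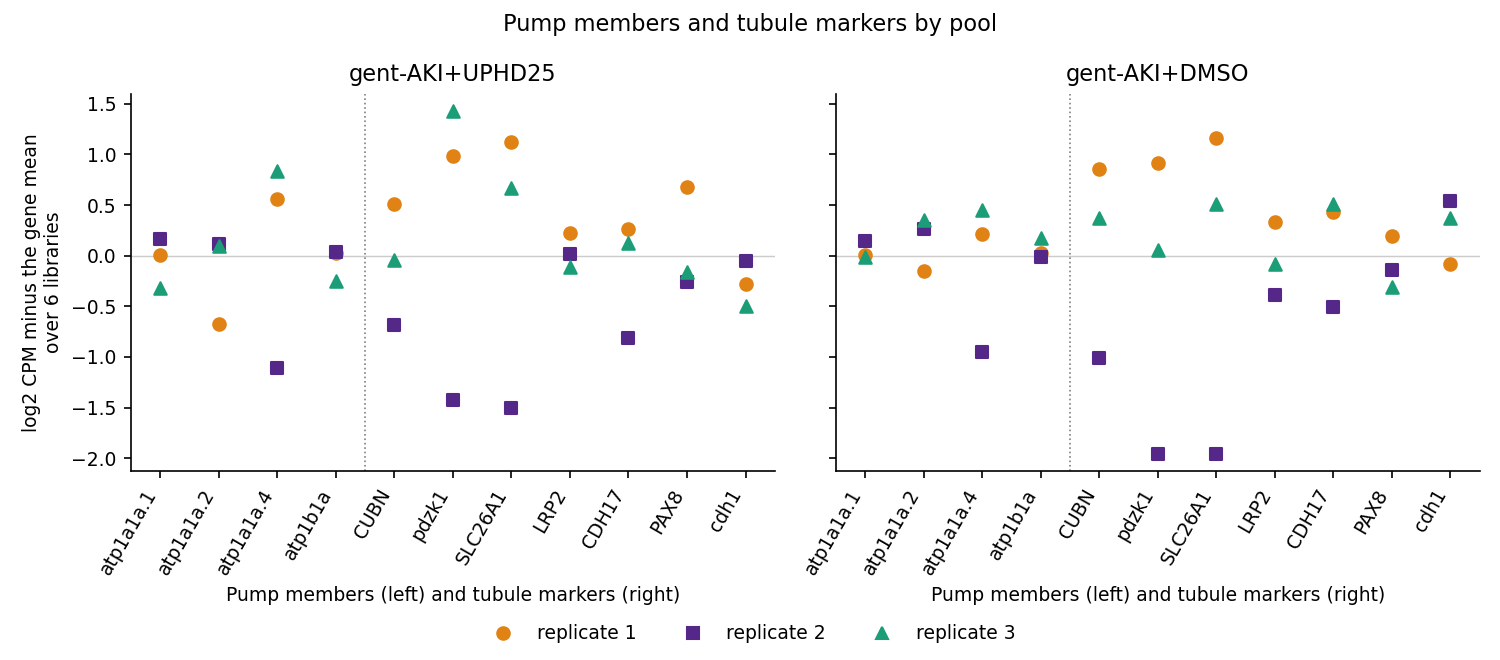
Each point is 1 library, as log2 CPM minus the mean of that gene over the 6 libraries, with gent-AKI+UPHD25 left and gent-AKI+DMSO right, and replicate numbers by shape and colour. The 4 tested pump members stand left of the dotted line and 7 tubule markers right of it, and the replicate 2 pools (squares) are lowest for atp1a1a.4, CUBN, pdzk1, SLC26A1 and CDH17 in both groups.

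The alpha gene atp1a1a.2, a neighbour of atp1a1a.1, is known from zebrafish skin ionocytes. It had 5.18, 8.94 and 8.86 CPM in UPHD25 replicates 1, 2 and 3, from 117, 93 and 132 counts, against 7.45, 9.92 and 10.6 CPM in DMSO replicates 1, 2 and 3, from 223, 106 and 127 counts. The groups overlapped, and in each replicate number the UPHD25 pool was the lower, at ratios of 0.695, 0.902 and 0.838. The mean was 7.66 ± 2.15 CPM after UPHD25 and 9.31 ± 1.65 CPM after DMSO (SD, n = 3 each). The log2 fold change was -0.28 (95% interval -0.97 to 0.40, adjusted p = 0.793 by edgeR's quasi-likelihood test), within the spread between pools. Without UPHD25 replicate 1 it was -0.069 and without DMSO replicate 1 it was -0.45. Of the ionocyte list, 6 of 7 matched genes were tested, and 0 passed the adjusted threshold by edgeR's quasi-likelihood test. For 2 genes (TRPV6 and ca15a) the UPHD25 libraries all lay below the DMSO libraries, where 7.46% of all genes did so. In the other tested genes of the list, foxi3a, GCM2, ca2 and slc12a10.2, the groups overlapped. Their log2 fold changes were -0.81, -0.42, -0.09 and 0.55, so slc12a10.2 went the other way. TRPV6 had only 4, 3 and 0 counts in UPHD25 replicates 1, 2 and 3, against 29, 11 and 19 in DMSO replicates 1, 2 and 3. Its mean CPM lay above only 0.08% of the genes tested. DESeq2's Wald test gave TRPV6 an adjusted p of 0.0264. The list summed to 53.4, 51.9 and 66.2 CPM in UPHD25 replicates 1, 2 and 3, against 62.6, 55.3 and 72.7 CPM in DMSO replicates 1, 2 and 3. In each replicate number this sum too was lower in the UPHD25 pool. Most of the sum was ca2, a carbonic anhydrase that other cells also use. It had 49.2, 47.6 and 45.4 CPM in UPHD25 replicates 1, 2 and 3, against 48.5, 43.7 and 58.9 CPM in DMSO replicates 1, 2 and 3. So ca2 itself was lower in the UPHD25 pool in replicate 3 alone. The part of ionocyte content in the level of atp1a1a.2 was not tested.

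The remaining alpha gene, atp1a1b, was barely detected. It had 3, 1 and 16 counts in UPHD25 replicates 1, 2 and 3, against 3, 1 and 4 counts in DMSO replicates 1, 2 and 3. These were 0.133, 0.0962 and 1.07 CPM after UPHD25 and 0.1003, 0.0936 and 0.333 CPM after DMSO. All libraries but DMSO replicate 3 and UPHD25 replicate 3 stood at or under 3 counts, so a difference was not detectable at this depth, and the gene did not pass the filter on low counts. The libraries were amplified by PCR and copies of 1 fragment were not marked, so the limits that counts set here cover counting error only.

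**Figure D2:**
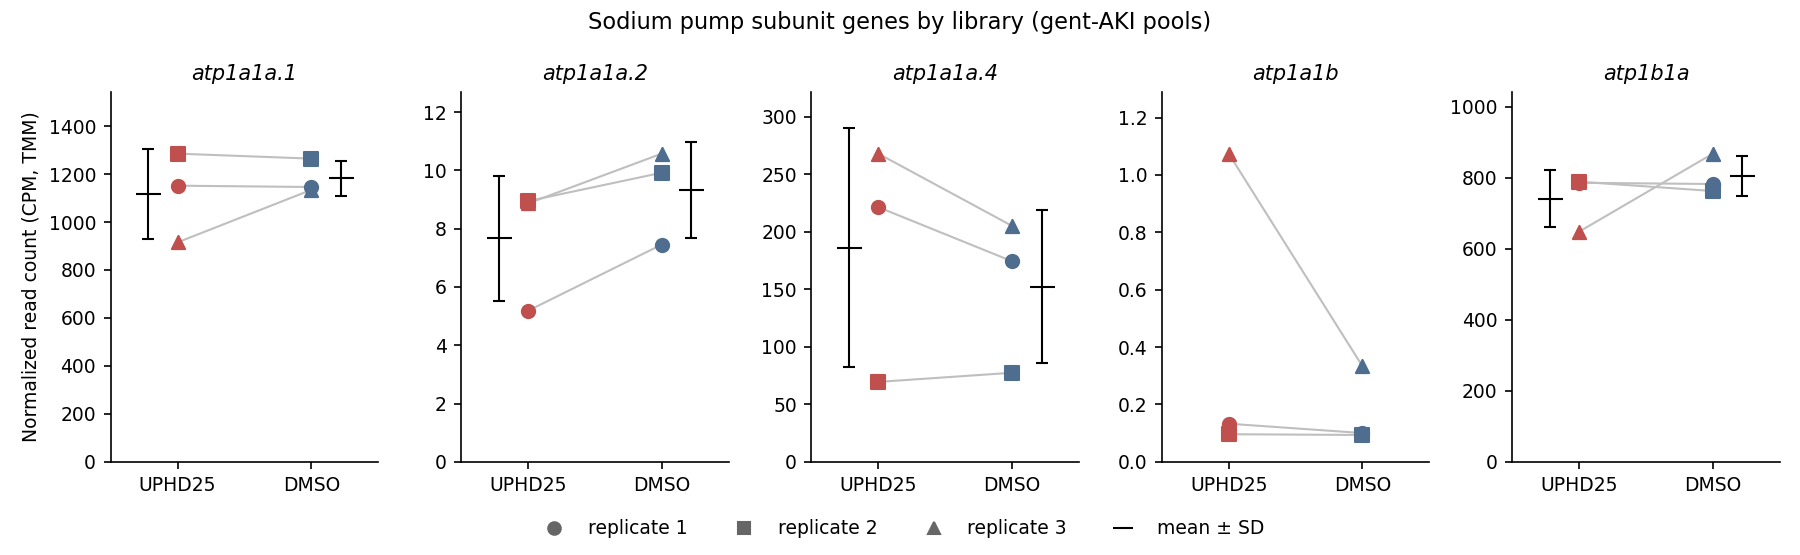
Normalized read count (CPM with TMM factors) of the 5 pump members, with gent-AKI+UPHD25 left and gent-AKI+DMSO right in each panel, each axis starting at 0. Each point is 1 pool, shapes and grey lines join pools of the same replicate number, and bars give the mean ± SD of 3 libraries, left out for atp1a1b, which did not pass the filter. The groups overlap in all 5 genes, and atp1a1a.4 spreads from 69.5 to 268 CPM.

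The 5 members together, without the other pump subunit genes, were compared by sums and ratios within libraries. The 5 members summed to 2164, 2152 and 1841 CPM in UPHD25 replicates 1, 2 and 3, against 2110.1, 2114 and 2218 CPM in DMSO replicates 1, 2 and 3. UPHD25 replicate 3 was again the lowest library. The mean sum was 2052 ± 183 CPM after UPHD25 and 2147 ± 61.1 CPM after DMSO (SD, n = 3 each, two-sided exact permutation test, p = 0.6, where 3 libraries against 3 allow no p under 0.1). As a share of all counts on genes, with no TMM factor, the members took 0.209%, 0.208% and 0.222% of the UPHD25 libraries 1, 2 and 3, against 0.205%, 0.191% and 0.221% of the DMSO libraries 1, 2 and 3. On this scale UPHD25 replicate 3 was the highest library, so the direction of the difference in the sum depended on the scaling. The TMM factor of that library was 1.21, against 0.903 to 1.00 in the other 5. All 9 matched alpha genes, members included, summed to 1499, 1585 and 1471 CPM in UPHD25 replicates 1, 2 and 3. In DMSO replicates 1, 2 and 3 they summed to 1428, 1445 and 1462 CPM, all lower. Of single genes tested, 10.4% had all UPHD25 libraries above all DMSO libraries. The alpha sums include atp1a3a, at a mean of 126 CPM after UPHD25 and 55.3 CPM after DMSO. They also include atp1a3b, at 66.5 and 38.8 CPM, and neither gene overlapped between groups. The part of these genes in the order of the alpha sums was not tested. The 7 matched beta genes summed to 1062, 1186 and 1059 CPM against 1026, 975 and 1111 CPM, with overlap. These list sums were read with TMM factors only and were not tested, so their order is given for that scaling alone.

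The ratio of alpha to beta counts, over the 4 alpha members and atp1b1a, needs no scaling between libraries. There were 1.75, 1.73 and 1.84 alpha counts for each atp1b1a count in UPHD25 replicates 1, 2 and 3, against 1.70, 1.77 and 1.56 in DMSO replicates 1, 2 and 3. The groups overlapped, and the log2 ratio differed by 0.08 (UPHD25 minus DMSO, two-sided exact permutation test, p = 0.3, n = 3 each). It was 0.032 without DMSO replicate 3 and 0.13 without DMSO replicate 2. Counts are not corrected for transcript length, so the ratio compares libraries and gives no stoichiometry of transcripts.

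Within the counts on the 4 alpha genes, atp1a1a.1 held 83.5%, 94.2% and 76.7% in UPHD25 replicates 1, 2 and 3, against 86.3%, 93.5% and 84.0% in DMSO replicates 1, 2 and 3. The share of atp1a1a.4 was 16.1%, 5.10% and 22.5% in UPHD25 replicates 1, 2 and 3, against 13.1%, 5.73% and 15.2% in DMSO replicates 1, 2 and 3. The replicate 2 pools had the lowest share in both groups and UPHD25 replicate 3 the highest of all. The mean share of atp1a1a.4 was 14.5% ± 8.79 after UPHD25 and 11.4% ± 4.98 after DMSO (SD, n = 3 each, two-sided exact permutation test, p = 0.6, adjusted p = 0.7 over the 4 shares tested). Without UPHD25 replicate 3 this difference changed sign, to -0.77 percentage points. The share of atp1a1a.2 was between 0.376% and 0.743% after UPHD25 and between 0.561% and 0.783% after DMSO, and atp1a1b stayed at or under 0.0900% in every library.

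The other pump subunit genes, from a list matched by symbol, held 18 genes, of which 15 were tested. None of the 15 passed edgeR's adjusted threshold (0 genes). At an unadjusted p under 0.05, 7 were higher and 1 was lower after UPHD25, where 9.09% and 3.41% of all genes were. DESeq2's Wald test, run on all 18, called 3, where 3.42% of all genes passed. All UPHD25 libraries lay above all DMSO libraries for 6 of the 15 and below them for 1, against 10.4% and 7.46% of all genes. The median log2 fold change of the 15 genes was 0.71, beside 0.03 over all genes tested. Without UPHD25 replicate 3 the median was 0.15, beside 0.01 over all genes. In that fit 5 genes were higher and 1 lower at that unadjusted p, where 10.7% of all genes passed in either direction. Without DMSO replicate 1 or DMSO replicate 3 the numbers were 5 higher and 0 lower, in each of these fits. Of all genes 9.11% passed without DMSO replicate 1 and 8.96% without DMSO replicate 3.

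Among the other alpha genes, atp1a3a and atp1a3b encode the alpha 3 subunit, the form used mainly by neurons. In the UPHD25 replicates 1, 2 and 3 atp1a3a had 72.5, 148 and 156 CPM, against 49.3, 48.8 and 67.6 CPM in the DMSO replicates 1, 2 and 3, with no overlap. Its log2 fold change was 1.18 (SE 0.31), with an adjusted p of 0.212 by edgeR's quasi-likelihood test and 0.0319 by DESeq2. For atp1a3b the means were 66.5 ± 20.8 CPM after UPHD25 and 38.8 ± 5.40 CPM after DMSO (SD, n = 3 each), again with no overlap. The cluster genes atp1a1a.3 and atp1a1a.5 had their highest level in UPHD25 replicate 3, at 29.1 and 6.24 CPM.

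Among the other beta genes, atp1b3a, a widely expressed beta 3 subunit, had 53.4, 58.7 and 63.8 CPM in UPHD25 replicates 1, 2 and 3, against 32.7, 29.0 and 28.9 CPM in DMSO replicates 1, 2 and 3. The pools of each group lay close together and well apart from the other group. Its log2 fold change was 0.96 (SE 0.17), with an adjusted p of 0.207 by edgeR's quasi-likelihood test and 0.00183 by DESeq2. ATP1B2 (ENSDARG00000099203), a beta subunit of glia and neurons, averaged 128 ± 30.9 CPM after UPHD25 and 78.0 ± 5.13 CPM after DMSO (SD, n = 3 each), and its groups did not overlap. A gene under ATP1B1 (ENSDARG00000076833), a symbol that the name table also gives to atp1b1a, averaged 47.9 ± 14.2 CPM after UPHD25 and 28.6 ± 5.01 CPM after DMSO (SD, n = 3 each), with overlap. ATP1B4, a beta form of muscle, had 17.3, 18.6 and 64.0 CPM in UPHD25 replicates 1, 2 and 3, against 9.26, 15.6 and 14.7 CPM in DMSO replicates 1, 2 and 3. The groups did not overlap, and UPHD25 replicate 3 stood far above the other 5 libraries.

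Of the FXYD genes, FXYD6, known from brain and inner ear in mammals, had 3.67, 8.46 and 11.6 CPM in UPHD25 replicates 1, 2 and 3, against 1.504, 2.15 and 3.08 CPM in DMSO replicates 1, 2 and 3. Its log2 fold change was 1.83 (SE 0.48), with an adjusted p of 0.213 by edgeR's quasi-likelihood test and 0.0174 by DESeq2. The gene fxyd11, known from zebrafish ionocytes, had 1.82, 1.92 and 6.18 CPM after UPHD25 and 10.23, 5.24 and 9.66 CPM after DMSO, in the order of replicates 1, 2 and 3. All 3 UPHD25 libraries of fxyd5 lay below the DMSO libraries, at a mean of 6.60 ± 1.48 CPM against 9.80 ± 1.43 CPM (SD, n = 3 each). The FXYD gene named fxyd2, whose mammalian counterpart is the gamma subunit of the kidney pump, had 0 to 5 counts after UPHD25 and 0 to 8 counts after DMSO.

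Neuronal markers were read beside the alpha 3, beta 2 and FXYD6 genes. All 8 neuronal genes matched were tested, 6 were higher after UPHD25 at an unadjusted p under 0.05, where 9.09% of all genes were, and 0 passed the adjusted threshold by edgeR's quasi-likelihood test. They summed to 465, 921 and 1128 CPM in UPHD25 replicates 1, 2 and 3, against 312, 393 and 462 CPM in DMSO replicates 1, 2 and 3. The part of neuronal RNA in these pump genes was not tested.

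**Figure D3:**
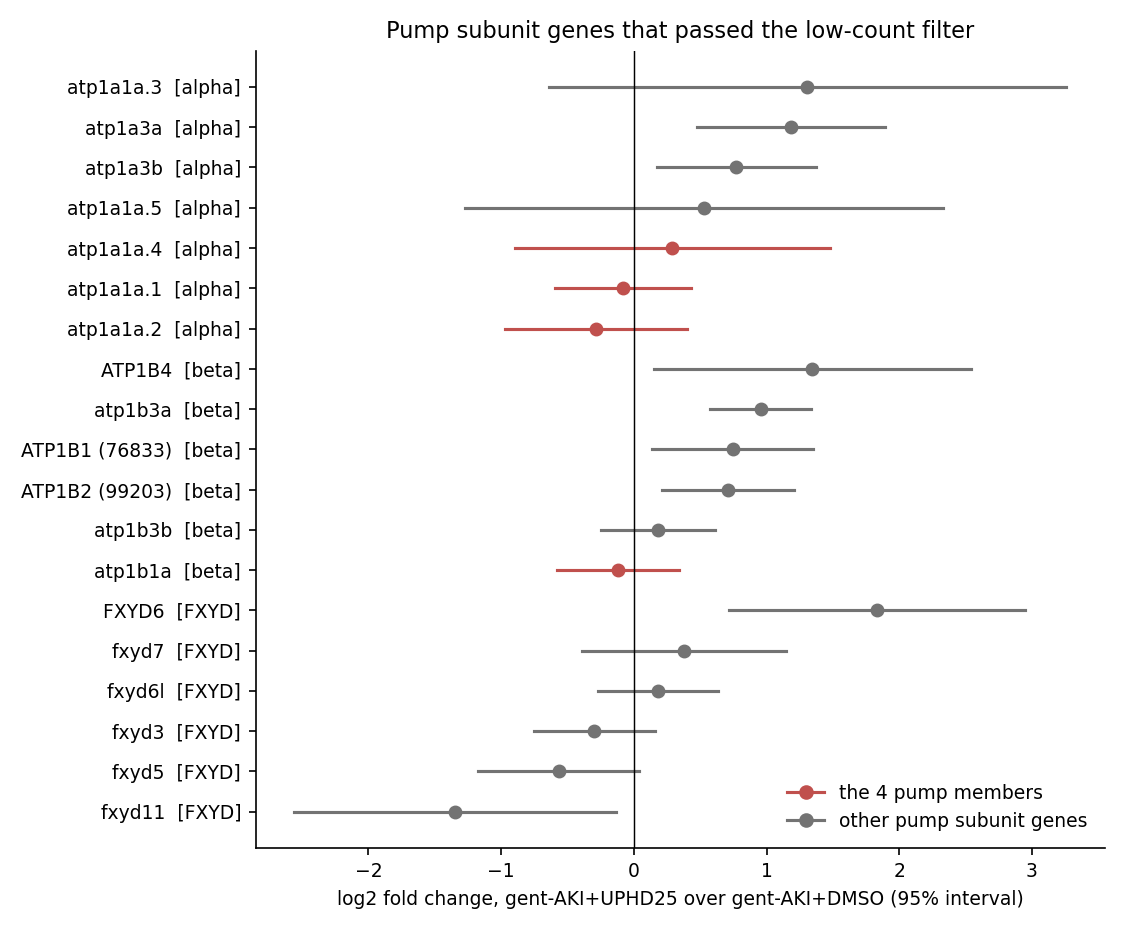
Log2 fold change (gent-AKI+UPHD25 over gent-AKI+DMSO) with its 95% interval for the 19 pump subunit genes that passed the low-count filter, grouped as alpha, beta and FXYD genes, with the last 5 digits of the identifier beside ATP1B1 and ATP1B2. The intervals of the 4 pump members (red) all include 0, while atp1a3a, atp1a3b, ATP1B4, atp1b3a, ATP1B1, ATP1B2 and FXYD6 lie above 0 and fxyd11 below. None had an adjusted p under 0.05 by edgeR's quasi-likelihood test, which gave the intervals, while DESeq2's Wald test called atp1a3a, atp1b3a and FXYD6.

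Genes of tubular transport, many of which use the sodium gradient, were read beside the pump. Of the 21 matched genes of proximal sodium-coupled transport 16 were tested, and 0 of 16 had an adjusted or an unadjusted p under 0.05 by edgeR's quasi-likelihood test. The median log2 fold change was 0.16. The highest was 1.70 for a SLC6A19 gene (ENSDARG00000018621), a neutral amino acid transporter, with 6.60, 2.31 and 30.1 CPM in UPHD25 replicates 1, 2 and 3, against 6.15, 1.03 and 4.58 CPM in DMSO replicates 1, 2 and 3. The lowest was -0.64 for a phosphate cotransporter, SLC34A1 (ENSDARG00000028824). The phosphate transporter SLC20A1 (ENSDARG00000010641) averaged 869 ± 28.8 CPM after UPHD25 and 826 ± 145 CPM after DMSO (SD, n = 3 each). Of basolateral and distal ion transport 5 of 7 genes were tested, between -0.70 for SLC12A1, the cotransporter of the thick ascending limb in mammals, and 0.77 for SLC12A3, that of the distal tubule, and 0 had an unadjusted p under 0.05. The 5 genes of proximal endocytosis lay between -0.54 for DAB2 (ENSDARG00000053091) and 0.08 for amn, again with 0 under that p. A further gene of that symbol, dab2 (ENSDARG00000031761), had -0.18.

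Genes of proteins that anchor or regulate the pump were read in the same way. Of 14 matched genes 13 were tested, with a median log2 fold change of -0.15 and 0 genes at an unadjusted p under 0.05 by edgeR's quasi-likelihood test. The membrane skeleton gene SPTAN1, an alpha spectrin, averaged 577 ± 64.4 CPM after UPHD25 and 624 ± 70.8 CPM after DMSO (SD, n = 3 each). The lowest log2 fold change was -0.40 for the kinase sgk2b.

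The tested genes most like each member were ranked by Pearson's r of log2 CPM over the 6 libraries, as a description across libraries that share their pools and depth. For atp1a1a.1 they were GSPT1, a translation termination factor (r = 0.999), and pbxip1a (r = 0.998), both with their lowest level in UPHD25 replicate 3. For atp1a1a.4 they were si:dkey-258f14.3 (r = 0.997) and the receptor gene gpr160 (r = 0.9955), both lowest in the replicate 2 pools. For atp1b1a they were BVES and the coatomer gene ARCN1 (r = 0.982 each), and for atp1a1a.2 they were si:dkey-7i4.1 (r = 0.996) and prx (r = 0.995). With 6 libraries such values were not rare, since 251 genes had an r above 0.95 with atp1a1a.1 and 99 with atp1a1a.4.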

How the data were processed

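The data were 6 zebrafish pronephros libraries (TruSeq Stranded mRNA, paired-end), 3 of each group. The authors aligned reads with HISAT2 2.1.0 to danRer11 and deposited raw counts per gene made with featureCounts, without normalization; its strand option and annotation release are not given in the sources used here.

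Tests used edgeR 4.0.16 (R 4.3.3): filterByExpr (minimum count 10, total 15), TMM, glmQLFit and glmQLFTest on group alone, two-sided, with Benjamini-Hochberg adjustment over 17497 genes at 0.05. CPM used TMM factors, log2 CPM a prior count of 2, and intervals are 95%. Steps were tested on simulated data. P-values set the difference between groups against the spread between pools. Sums, ratios and shares were compared by exact permutation tests. Alternatives were other scalings and filters, DESeq2 1.42.0, the replicate block and each library left out. No transcript lengths were used, so the length-corrected alternative was not run.

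Symbols came from a table holding 29201 of 32520 identifiers. They were first matched without regard to case, so a listed symbol could take several genes. For listed symbols left unmatched, human-style symbols were taken where a list held at least as many paralogues. Named were the 5 members, their 2 most alike genes, and of each pump or transport list the genes past the threshold or with groups apart, the highest and the lowest. Other genes and markers were added after their values were seen, and some genes of these lists are not reported here. Members and lists were chosen with earlier results of these data known.

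Deviations of same-numbered libraries from their group means correlated at 0.495, 0.293 and 0.211 across genes (replicates 1, 2 and 3). The numbers were therefore taken as pairs in the replicate block and the same-number ratios. This rests on the data and the labels' numbers and not on a stated shared batch. The main fit and the exact permutation tests did not use the pairs.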

Additional observations from a re-analysis of the deposited data

How the results depend on the processing

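Of the 4 pump members that passed the low-count filter, 0 passed the adjusted threshold in each alternative run (edgeR's quasi-likelihood test or DESeq2), and DESeq2 gave atp1a1b no adjusted p. Over all genes the number past the threshold was 0 in the main test, 636 with DESeq2's Wald test, and 0 to 1 with a library left out, the 1 gene without UPHD25 replicate 2. For atp1a1a.1 library totals turned the log2 fold change to 0.032, and it ran from -0.20 to 0.042 with a library left out, while for atp1a1a.4 it ran from -0.058 to 0.68. Over 13 alternatives each, atp1a1a.2 and atp1b1a kept their sign, though atp1b1a came to only -0.0056 with library totals. The adjusted p of the members ranged from 0.535 to 0.998 (edgeR's quasi-likelihood test or DESeq2). The difference in summed CPM of the members (UPHD25 minus DMSO) was -94.98, was 75.5 with library totals, and ran from -165.7 to 8.22 with a library left out. In percentage points of the alpha counts, with a library left out the difference ran from -7.82 to 0.95 for atp1a1a.1, -0.18 to 0.0067 for atp1a1a.2, -0.77 to 7.92 for atp1a1a.4 and -0.0047 to 0.037 for atp1a1b. The log2 ratio of alpha to beta counts differed by 0.08, and by 0.032 to 0.13 with a library left out. The cause was not tested. Under the replicate block 0 genes passed, the log2 fold changes were -0.09, -0.31, 0.19 and -0.12 for atp1a1a.1, atp1a1a.2, atp1a1a.4 and atp1b1a, and no call changed. The number of other pump genes at an unadjusted p under 0.05, examined after seeing the data, was 8, and ran from 5 to 9 with a library left out. Over all genes 12.5% passed in the main test, and 8.13% to 16.7% with a library left out. Library totals put the median over all genes at 0.15 on the log2 scale, against 0.03 with TMM. Depth limits atp1a1b, at 1 to 16 counts.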
